A study of Mus musculus with 30 samples.

Results

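The genes Saa1, Saa3, Hp, Lcn2, Slpi and Cp encode secreted acute-phase proteins and were followed in mouse bone marrow derived macrophages, cells grown in culture from marrow. These 6 genes are 6 of the 30538 in the table of counts, and all 6 were among the 13173 with enough counts to be tested. They were picked by name with their measured levels known, from the rise with lipopolysaccharide (LPS), a component of the outer membrane of Gram-negative bacteria, in untreated cells. Their LPS response in untreated cells is therefore given as a description, and every comparison with untreated cells shares libraries with it. Against untreated cells, that choice favours lower values with LPS and higher values at rest. The p values given for such comparisons do not allow for the choice. Wild-type cells came from 3 C57BL/6 mice and Ch25h-/- cells from 3 mice lacking the enzyme that makes 25-hydroxycholesterol (25HC), with no age or sex given. Wild-type cells were left untreated or were given 5 µM 25HC, 1 µM itraconazole or 0.3 µM OSW-1 for 18 h, and Ch25h-/- cells were left untreated. The series' title calls the compounds inhibitors of the oxysterol binding protein OSBP. Each of these 5 conditions was harvested unstimulated or 18 h after LPS at 10 ng/mL, which gives 10 groups of 3 libraries and 30 libraries in all. No vehicle is named for the untreated cells. The sample titles do not tell whether unstimulated cells were kept in culture for the 18 h of LPS. If they were not, LPS and the added time cannot be told apart. Nor do the titles tell whether untreated cells were kept for the 18 h of compound treatment. If not, a compound and the added time cannot be told apart. It is also not stated whether the compounds stayed on during LPS.

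The acute-phase response is the change in plasma proteins that follows infection or injury. Most of these proteins are made by the liver under the cytokines IL-6 and IL-1, and macrophages make some of them locally. Serum amyloid A proteins (Saa1, Saa3) are small apolipoproteins that bind lipids and act on leukocytes. Haptoglobin (Hp) binds free haemoglobin, ceruloplasmin (Cp) is a copper-carrying ferroxidase, and lipocalin 2 (Lcn2) binds bacterial siderophores and so keeps iron from microbes. Secretory leukocyte peptidase inhibitor (Slpi) blocks neutrophil elastase and cathepsin G. In the liver, genes of this kind respond through the transcription factors STAT3, C/EBP and NF-kB.

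Promoters from RefSeq (GRCm38.p6) are shown for Saa3, Saa1 and Cp, which fell with OSW-1 and LPS, for Slpi, which rose, and for Lcn2, which was not called. Each runs 5′ to 3′ on the gene's strand, from 250 bases before to 50 bases after a transcription start, and capitals mark matches to the motifs named after the sequences. Cp has 2 listed starts.
Saa3: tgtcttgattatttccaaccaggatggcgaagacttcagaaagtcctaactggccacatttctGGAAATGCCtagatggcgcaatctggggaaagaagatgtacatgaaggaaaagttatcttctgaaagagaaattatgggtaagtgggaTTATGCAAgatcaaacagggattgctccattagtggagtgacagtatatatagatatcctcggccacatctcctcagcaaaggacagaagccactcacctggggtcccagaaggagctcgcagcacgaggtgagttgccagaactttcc
Saa1: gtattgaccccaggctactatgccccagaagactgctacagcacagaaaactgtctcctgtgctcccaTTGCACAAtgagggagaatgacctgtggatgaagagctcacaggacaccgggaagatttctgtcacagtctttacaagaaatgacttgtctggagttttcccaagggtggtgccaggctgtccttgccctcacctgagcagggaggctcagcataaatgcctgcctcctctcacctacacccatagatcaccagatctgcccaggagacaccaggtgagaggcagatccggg
Cp, first start: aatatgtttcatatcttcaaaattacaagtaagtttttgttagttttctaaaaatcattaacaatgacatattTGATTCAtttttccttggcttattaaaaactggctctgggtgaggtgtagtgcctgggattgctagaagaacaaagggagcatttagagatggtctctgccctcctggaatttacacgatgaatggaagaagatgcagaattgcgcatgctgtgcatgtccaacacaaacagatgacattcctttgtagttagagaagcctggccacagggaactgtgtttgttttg
Cp, second start: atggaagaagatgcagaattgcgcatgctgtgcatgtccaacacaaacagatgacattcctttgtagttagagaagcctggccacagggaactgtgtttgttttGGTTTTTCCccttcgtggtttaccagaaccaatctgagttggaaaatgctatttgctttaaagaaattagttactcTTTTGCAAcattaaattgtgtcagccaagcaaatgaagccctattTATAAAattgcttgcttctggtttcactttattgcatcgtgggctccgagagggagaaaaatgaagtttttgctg
Lcn2: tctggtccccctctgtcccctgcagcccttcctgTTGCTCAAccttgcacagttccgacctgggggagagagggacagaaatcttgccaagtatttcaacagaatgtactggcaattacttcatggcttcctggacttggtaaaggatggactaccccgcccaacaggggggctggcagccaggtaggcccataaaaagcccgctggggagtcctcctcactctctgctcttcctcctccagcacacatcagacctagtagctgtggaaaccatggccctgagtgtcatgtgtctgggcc
Slpi: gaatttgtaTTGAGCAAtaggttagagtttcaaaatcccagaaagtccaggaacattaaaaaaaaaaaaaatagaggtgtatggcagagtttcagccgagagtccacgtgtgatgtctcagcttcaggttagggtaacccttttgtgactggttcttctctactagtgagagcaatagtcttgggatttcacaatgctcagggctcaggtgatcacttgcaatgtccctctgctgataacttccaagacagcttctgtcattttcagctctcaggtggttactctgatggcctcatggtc

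The windows are chr7:46715627-46715926 for Saa3, chr7:46742931-46743230 for Saa1, chr3:19956804-19957103 and chr3:19956999-19957298 for Cp, chr2:32387690-32387989 for Lcn2 and chr2:164356458-164356757 for Slpi, with Cp on the plus strand and the others on the minus strand. The Slpi and Lcn2 windows lie wholly inside the gene intervals given below, so they belong to starts within those intervals. Searched on both strands were GGNNNTTCC (NF-kB), TTGCNNAA (C/EBP), TTCNNNGAA (STAT) and TGANTCA (AP-1), and TATAAA (the TATA box) was searched on the gene's strand. No 2 of the matches shown share a base. The C/EBP letters occur in the windows of Saa3, Saa1, Lcn2, Slpi and the second start of Cp, and in 10.8% of all 32851 promoters. In Saa3 they begin at position -99 from the start and in Saa1 at -182. The NF-kB letters occur in Saa3, at position -187, and at the second start of Cp, and in 18.5% of all promoters. The AP-1 letters occur at the first start of Cp (7.81% of all promoters), and the TATA letters at its second start (8.32%). The STAT letters, present in 8.3% of all promoters, are in none of these windows. A match describes the sequence and is not a measured binding site.

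Total counts per library ran from 23656860 to 43922154. Ch25h, the deleted gene, was at 0.599 to 29.1 CPM (counts scaled to a common library size) in wild-type libraries and at 0 to 0.277 CPM in Ch25h-/- libraries. All 12 macrophage markers had reads in every group, and they summed to 22600 to 27300 CPM in unstimulated untreated cells, 26900 to 39600 with LPS and 5760 to 7990 with OSW-1 and LPS. Hepatocyte markers summed to at most 0.768 CPM in any library, and albumin had no reads in 8 of 10 groups. Neutrophil markers summed to 32.7 to 62 CPM unstimulated and 258 to 299 with LPS. Csf3r, at 249 CPM, led this list with LPS, while Elane, Mpo and Retnlg had no reads. The fibroblast list summed to 1.8 to 3.44 CPM unstimulated and 6.32 to 12.8 with LPS, and the adipocyte list to 25.1 to 27.1 and 92 to 130. Fabp4 led the adipocyte list, and Adipoq, Plin1 and Cidec had no reads with LPS. The part of other cells in the LPS response was not tested. Every count was even in 20 libraries, whereas 9 libraries, those with OSW-1 and LPS and those of Ch25h-/- cells, held odd and even counts alike. This difference in the files cannot be told apart from OSW-1 with LPS or from genotype where those are compared with the other libraries. CPM is the same whether a whole library is doubled or not.

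Untreated wild-type macrophages held few transcripts of these genes at rest and many after LPS. The serum amyloid A genes lie in a cluster on chromosome 7 (GRCm38). Saa3 (chr7:46711998-46715700, minus strand) was at 4.02, 1.04 and 5.57 CPM in unstimulated mice 1, 2 and 3 and at 45072, 38049 and 38684 CPM with LPS. Every LPS library lay above every unstimulated one, with a log2 fold change of 13.49 ± 0.71 (SE, n = 3 mice a group). With LPS, Saa3 alone took 3.45% of all counts in a library, and the 6 genes together 3.68 ± 0.161% (SD, n = 3). Saa1 (chr7:46740497-46742980, minus strand), a form that the liver releases into plasma, had 0 reads in all 15 unstimulated libraries of the study. With LPS it was at 23.6, 18.4 and 11.9 CPM, at least 338-fold higher when the unstimulated group is set to 3 reads over its 3 libraries. Of 2519 stretches of 50 bases in Saa1 transcripts, 784 (31.1%) also occur in Saa2, so the split of reads between these neighbours is uncertain. Saa3 shares 9 such stretches with Saa1.

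The carriers of haemoglobin, copper and siderophore also went from few reads at rest to many with LPS. Hp (chr8:109575128-109579172, minus strand) was at 0.0945, 0.156 and 0.248 CPM at rest and at 544, 439 and 521 CPM with LPS. The groups were far apart, with a log2 fold change of 11.58 ± 0.56. Cp (chr3:19957054-20009145, plus strand) was at 1.18, 2.14 and 4.71 CPM at rest, with mouse 3 highest, and at 489, 469 and 493 CPM with LPS. The log2 fold change of 7.54 ± 0.48 became 8.21 without unstimulated mouse 3. Cp overlaps Hps3 on the opposite strand, and the strand setting of the counting is not given in the sources used here. Lcn2 (chr2:32384633-32388252, minus strand) was at 0.284, 0.782 and 0.681 CPM at rest and at 2056, 1945 and 1163 CPM with LPS. Mouse 3 was the lowest of the LPS libraries, and the log2 fold change was 11.55 ± 0.39. Slpi (chr2:164354070-164389095, minus strand), the protease inhibitor, was at 0.0473, 0.104 and 0.124 CPM at rest, which is 1 to 2 reads a library. It was at 23.2, 18.1 and 12.5 CPM with LPS, with no overlap and a log2 fold change of 7.60 ± 0.42. The Slpi interval overlaps the miRNA gene Mir7678 on the same strand. Across all tested genes 30.8% were called higher with LPS (edgeR quasi-likelihood test, Benjamini-Hochberg adjusted p under 0.05), and the 6 members were among them by choice.

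**Figure D1:**
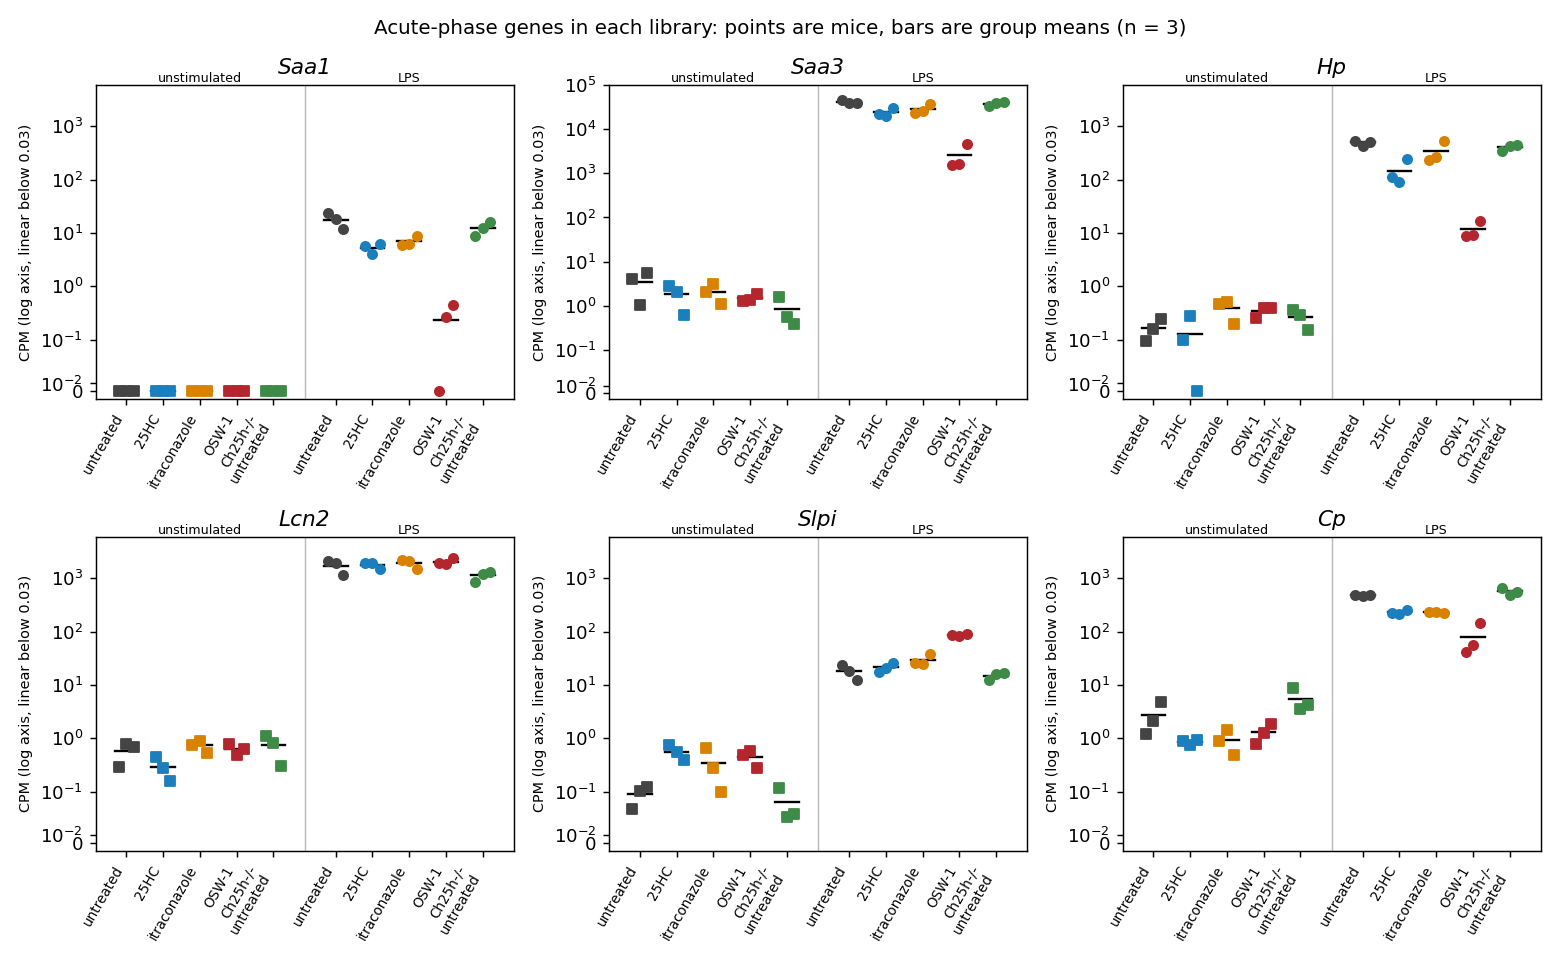
Level of each gene in each library in CPM (vertical axis, logarithmic and linear below 0.03), for 5 unstimulated groups (squares) and 5 LPS groups (circles), with bars at the means of 3 mice. Saa1 lies at 0 in every unstimulated group, and with LPS the OSW-1 points lie below all others for Saa1, Saa3, Hp and Cp and above all others for Slpi.

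Divided by exon length, the levels with LPS in untreated cells kept a clear order. Saa3 had 14601 to 17296 CPM per kb of exon, followed by Lcn2 with 443 to 784, Hp with 273 to 339, Cp with 49 to 51.5, Slpi with 10.6 to 19.7 and Saa1 with 4.78 to 9.52 (lowest to highest mouse). No neighbours in this order overlapped. With OSW-1 and LPS the ranges of Saa3 (607 to 1738 CPM per kb) and Lcn2 (700.2 to 913) overlapped. Slpi was next at 70.7 to 75.9, above Cp at 4.4 to 15.1 and Hp at 5.47 to 10.7, whose ranges overlapped. With itraconazole and LPS, Slpi (20.8 to 31.8) and Cp (23.5 to 24.7) overlapped. With 25HC and LPS, and in Ch25h-/- cells with LPS, the order was that of untreated wild-type cells and no neighbours overlapped. As a mean of 3 mice, Saa3 made up 93.7% of the counts of the 6 genes in untreated cells with LPS and 50.6% with OSW-1 and LPS. The OSW-1 mice differed in this. Saa3 lay below Lcn2 in mice 1 and 2 (1581 and 1638 against 1925 and 1837 CPM) and above it in mouse 3 (4530 against 2394 CPM).

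**Figure D2:**
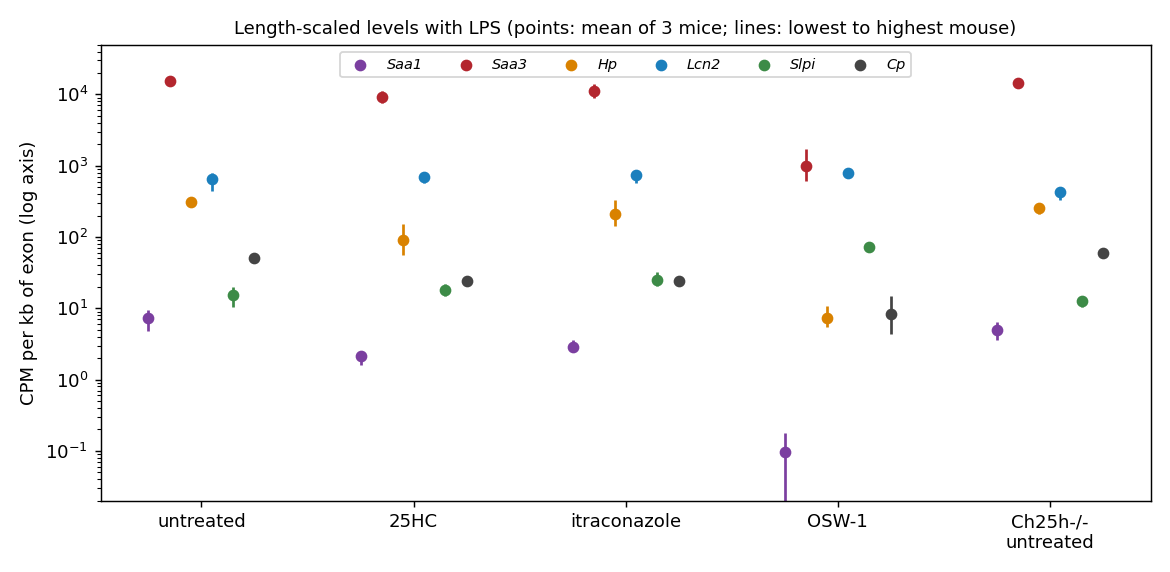
Length-scaled level of the 6 genes in the 5 LPS groups (vertical axis, CPM per kb of exon, logarithmic; points are means of 3 mice and lines run from the lowest to the highest mouse). Saa3 and Lcn2 are far apart in untreated cells and overlap with OSW-1, and the Saa1 line with OSW-1 leaves the axis since mouse 1 had 0 reads.

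LPS raised all 6 genes in each of the other 4 backgrounds too. In the order 25HC, itraconazole, OSW-1 and Ch25h-/-, the test called 30.6%, 33.4%, 34.8% and 28% of all tested genes higher. After OSW-1 the log2 fold changes were 10.75 ± 0.66 for Saa3 (adjusted p = 2.46e-13), 5.08 ± 0.49 for Hp (1.4e-09), 5.98 ± 0.47 for Cp (2.8e-11), 11.65 ± 0.38 for Lcn2 (1.85e-18) and 7.55 ± 0.34 for Slpi (7.3e-16). Cp with OSW-1 came to 5.25 and Saa3 to 10.07 without mouse 3 of the LPS group. The same 5 genes had log2 fold changes of 5.22 ± 0.32 (Slpi, adjusted p = 5.41e-13) to 13.63 ± 0.71 (Saa3, 2.01e-14) after 25HC and of 6.36 ± 0.34 (Slpi, 3.1e-14) to 13.76 ± 0.72 (Saa3, 1.45e-14) after itraconazole. Without mouse 2 of the unstimulated 25HC group Hp after 25HC moved from 10.11 ± 0.56 to 11.28, and without mouse 1 of the unstimulated itraconazole group Slpi after itraconazole moved to 7.29. In Ch25h-/- cells, whose response for Saa3 and Lcn2 was known when the genes were chosen, the values were 15.45 ± 0.77 for Saa3, 10.56 ± 0.38 for Lcn2, 10.55 ± 0.54 for Hp, 7.85 ± 0.48 for Slpi and 6.69 ± 0.46 for Cp. Without Ch25h-/- unstimulated mouse 1, Saa3 came to 16.24 and Slpi to 8.58. Saa1 rose from 0 reads at least 120-fold after 25HC, 141-fold after itraconazole, 339-fold in Ch25h-/- cells and 5.06-fold after OSW-1, where mouse 1 stayed at 0 reads.

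**Figure D3:**
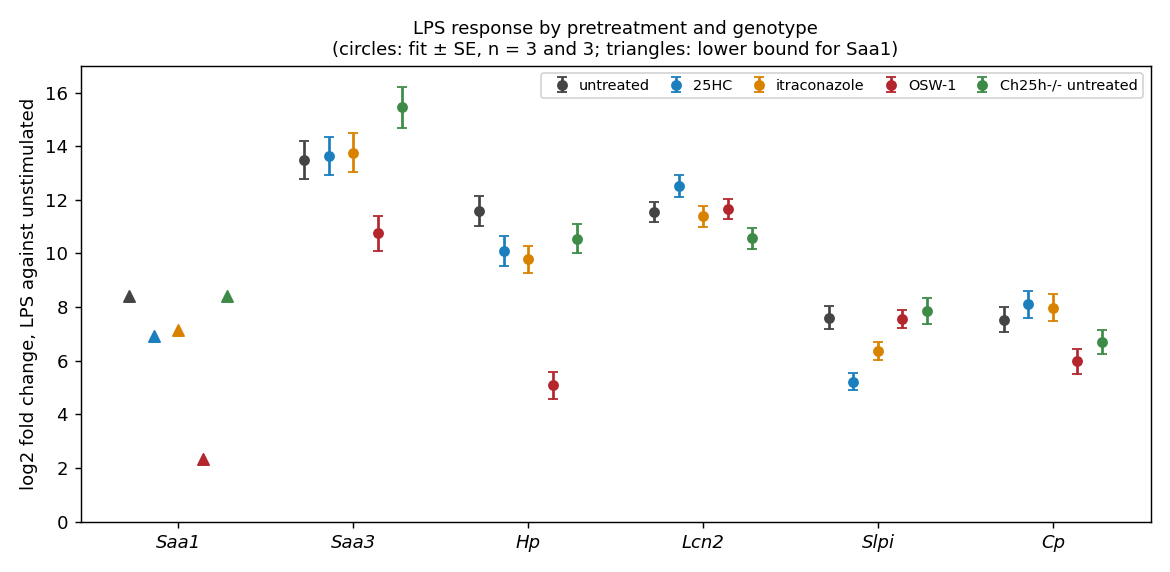
Log2 fold change with LPS against unstimulated cells (vertical axis) for each gene in the 5 backgrounds (colours; circles are fitted values ± SE with 3 mice a group, triangles are lower bounds for Saa1). Saa3, Hp and Cp have their lowest values after OSW-1, and Slpi after 25HC.

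OSW-1, a plant steroidal saponin, went with lower Saa3, Saa1, Hp and Cp and higher Slpi after LPS. Against untreated cells with LPS, 4 of the 6 genes fell and Slpi rose, while 37.1% of all tested genes were called lower and 34.3% higher. The genes were picked for their LPS rise in untreated cells, which favours a fall against them with any compound or in Ch25h-/- cells. The adjusted p given for such falls do not allow for that choice and are a description. Saa3 was at 1581, 1638 and 4530.4 CPM with OSW-1 and LPS. Mouse 3 was the highest of these, and all 3 lay far below the lowest untreated library (38049 CPM). The level was 15.7-fold lower (log2 -3.97 ± 0.48, adjusted p = 5.08e-08), and the log2 value was -4.66 without mouse 3. Saa1, a plasma relative of Saa3, had 0, 7 and 13 reads in the 3 mice, or 0, 0.262 and 0.447 CPM. That is below every untreated LPS library (lowest 11.9 CPM), at a log2 fold change of -6.17 ± 0.51 (adjusted p = 2.29e-08) and of -7.02 without mouse 3. Hp was at 8.79, 9.2 and 17.2 CPM, 42.6-fold lower (log2 -5.41 ± 0.38, adjusted p = 3.61e-12). These libraries too lay below all untreated ones, the lowest of which was at 439 CPM.

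Cp was at 42.1, 55.5 and 144 CPM with OSW-1 and LPS, again with mouse 3 highest and no overlap with untreated cells. It was 6-fold lower (log2 -2.58 ± 0.37, adjusted p = 7.92e-07), with a log2 value of -3.31 without mouse 3. Slpi moved the other way and was at 84.7, 83.4 and 89.5 CPM, close together in the 3 mice and above every other library of the study. It was 4.79-fold higher than in untreated cells with LPS (log2 2.26 ± 0.24, adjusted p = 8.24e-09). Lcn2 was at 1925, 1837 and 2394 CPM and overlapped the untreated libraries (log2 0.25 ± 0.23, adjusted p = 0.335). With library totals alone as the scale, under which the median of all genes shifted by 0.249 and the called genes were 59.9% higher ones in place of 48.0%, Lcn2 was called higher (0.52, adjusted p = 0.0329), and the other 5 genes kept their directions. The macrophage markers summed to 5760 to 7990 CPM here against 26900 to 39600 in untreated cells with LPS, the neutrophil markers to 50.1 to 133 against 258 to 299, the adipocyte list to 2.61 to 3.54 against 92 to 130 and the B cell list to 0.161 to 0.722 against 5.41 to 9.42. The dendritic cell list was higher, at 31.2 to 58.9 against 1.92 to 2.09 CPM and led by Ccr7, with Siglech and Cd209a at 0. So was the fibroblast list, at 15.2 to 23.4 against 6.32 to 12.8. Pdgfrb alone, at a mean of 15.7 CPM, led it with OSW-1, and Dcn, at 3.46, in untreated cells. The macrophage list was led by Adgre1 (2260 CPM) with OSW-1 and by Lyz2 (15300 CPM) in untreated cells. The part of these markers in the differences was not tested. In bulk RNA, fewer cells that make a transcript and less of it per cell cannot be told apart.

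25HC, an oxysterol that binds OSBP, went with lower levels of 3 of the 6 genes with LPS, while 21% of all tested genes were called lower. The choice of genes favours such falls, so the count and the adjusted p are a description. Saa1 was at 5.74, 4.01 and 6.12 CPM, below all untreated LPS libraries, and fell 3.4-fold (log2 -1.77 ± 0.36, adjusted p = 0.00117). Hp was at 111, 89.4 and 242 CPM and fell 3.4-fold (log2 -1.77 ± 0.32, adjusted p = 9.85e-05). Mouse 3 was the highest and still lay below the lowest untreated library. Cp was at 227, 218 and 255 CPM with no overlap and fell 2.08-fold (log2 -1.05 ± 0.35, adjusted p = 0.0178), a call lost without mouse 2 of the 25HC group (log2 -1.01, adjusted p = 0.0633). For Saa3 the libraries at 21810.4, 20027 and 29477 CPM all lay below the untreated ones, yet the test did not call it (log2 -0.77 ± 0.42, adjusted p = 0.148). It was called in limma-voom, which takes the animal as random, with an adjusted p of 0.0453. Lcn2 at 1949, 1944 and 1498 CPM and Slpi at 17.5, 20.7 and 26 CPM overlapped untreated cells, with log2 values of 0.06 ± 0.23 and 0.25 ± 0.24 and adjusted p of 0.855 and 0.41. The macrophage markers summed to 15400 to 21800 CPM, the neutrophil list to 197 to 251, the fibroblast list to 5.73 to 6.06, the adipocyte list to 21.2 to 26.3 and the B cell list to 0.521 to 2, each below the untreated range. The dendritic cell list, at 4.59 to 9.48 CPM, lay above it, and the part of these markers was not tested.

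Itraconazole, an azole antifungal, went with lower Saa1 and Cp and higher Slpi with LPS, while 27.9% of all tested genes were called lower and 26.5% higher. The choice of genes favours the falls here too, and their adjusted p are a description. Saa1 was at 6.09, 6.14 and 8.98 CPM with no overlap (log2 -1.34 ± 0.35, 2.54-fold lower, adjusted p = 0.00467). Cp was at 230.4, 236 and 225 CPM, near the 25HC values (log2 -1.07 ± 0.35, 2.1-fold lower, adjusted p = 0.0119). Slpi was at 25.5, 24.5 and 37.5 CPM, just above the highest untreated library at 23.2 CPM (log2 0.70 ± 0.24, adjusted p = 0.0142). That call was lost without untreated mouse 3 (log2 0.50, adjusted p = 0.0837), without itraconazole mouse 3 (log2 0.48, adjusted p = 0.0974) and in a fit of the compared groups alone (adjusted p = 0.0603). Hp was at 231, 266 and 533 CPM, with mouse 3 inside the untreated range and mice 1 and 2 below it. It was not called (log2 -0.55 ± 0.31, adjusted p = 0.135) but was with the mouse as a block (-0.67, adjusted p = 0.0158), in limma-voom (adjusted p = 0.0331) and without itraconazole mouse 3 (-1.01, adjusted p = 0.0067). Saa3 at 23508, 25934 and 37042 CPM, below the untreated range with mouse 3 close to it, and Lcn2 at 2219, 2141 and 1484 CPM, overlapping it, were not called, with log2 values of -0.49 ± 0.42 and 0.18 ± 0.23 and adjusted p of 0.336 and 0.54. The macrophage markers summed to 15800 to 29800 CPM, which overlaps the untreated range. The neutrophil list (194 to 219 CPM), the adipocyte list (12.1 to 35.5) and the B cell list (0.373 to 1.83) lay below the untreated range and the dendritic cell list (4.29 to 6.37) above it, and their part was not tested.

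The doses of the 3 compounds differ and their comparisons share the untreated libraries, so the compounds were not tested against each other. Side by side, mean Saa3 with LPS was 40602 ± 3885 CPM untreated, 23772 ± 5021 with 5 µM 25HC, 28828 ± 7216 with 1 µM itraconazole and 2583 ± 1687 with 0.3 µM OSW-1 (SD, n = 3). Mean Hp was 501 ± 55.2, 147 ± 82.4, 343 ± 165 and 11.7 ± 4.72 CPM in the same order. Mean Slpi was 17.9 ± 5.39, 21.4 ± 4.26, 29.2 ± 7.23 and 85.9 ± 3.24 CPM. Mean Lcn2 stayed between 1721 and 2052 CPM across the 4 wild-type LPS groups.

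**Figure D4:**
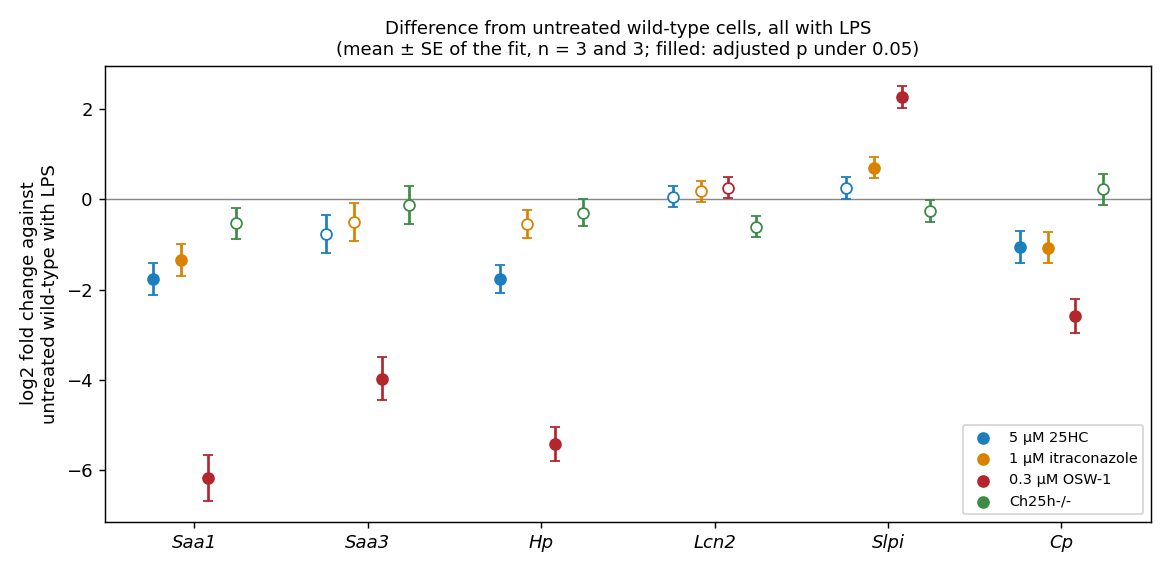
Log2 fold change against untreated wild-type cells, all with LPS (vertical axis), for each gene with 25HC, itraconazole, OSW-1 or in Ch25h-/- cells (colours; fitted value ± SE, 3 mice a group; filled symbols have an adjusted p under 0.05). With OSW-1, Saa1 is at -6.17, Hp at -5.41, Saa3 at -3.97 and Cp at -2.58, while Slpi is at 2.26 and Lcn2 lies near 0.

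Without LPS, Slpi was called higher with all 3 compounds and Cp lower with 25HC and itraconazole, at levels near or below 5 CPM and with calls that several alternatives lose. Slpi was at 0.736, 0.562 and 0.382 CPM with 25HC, 0.665, 0.279 and 0.0978 with itraconazole and 0.479, 0.586 and 0.28 with OSW-1, against 0.0473, 0.104 and 0.124 in untreated cells. These values rest on 37, 21 and 28 reads over the 3 libraries of each compound and 5 reads in untreated cells. The 25HC and OSW-1 libraries all lay above the untreated ones, and the lowest itraconazole library lay among them. Slpi rose with 25HC (log2 2.64 ± 0.62, adjusted p = 0.0025), itraconazole (1.94 ± 0.68, 0.0348) and OSW-1 (2.31 ± 0.64, 0.00616). The genes were picked for a rise from these untreated libraries, which favours higher values with a compound. The p values do not allow for that choice. Of all tested genes, 15.9%, 14.4% and 20.1% were called higher with these compounds. In limma-voom none of the 3 was called (adjusted p = 0.0614, 0.307 and 0.0943). The itraconazole call was lost with the mouse as a block (adjusted p = 0.0531) and with even counts halved (adjusted p = 0.0863), as it was on leaving out each of the 3 untreated mice in turn (adjusted p = 0.135, 0.0646 and 0.0639) or without itraconazole mouse 1 (1.02, adjusted p = 0.381).

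Cp at rest was at 0.883, 0.731 and 0.923 CPM with 25HC and fell 3.07-fold from the untreated 1.18, 2.14 and 4.71 CPM, with no overlap (log2 -1.62 ± 0.54, adjusted p = 0.0259, 12.8% of tested genes lower). With itraconazole it was at 0.902, 1.4 and 0.489 CPM, which overlaps the untreated range (log2 -1.50 ± 0.52, adjusted p = 0.0346, 12.4% of tested genes lower). Both calls rest on untreated mouse 3, the highest: without it the values were -0.96, adjusted p = 0.256 with 25HC and -0.84, adjusted p = 0.325 with itraconazole. The 25HC call was also lost without mouse 1 or mouse 2 of the 25HC group (adjusted p = 0.0714 and 0.0928), and the itraconazole call without mouse 1 or mouse 3 of its group (adjusted p = 0.0903 and 0.138). In limma-voom neither was called (adjusted p = 0.264 and 0.245), and the itraconazole call was lost with even counts halved (adjusted p = 0.0679) and in the fit of the compared groups alone (adjusted p = 0.0559). With OSW-1 Cp was at 0.784, 1.27 and 1.85 CPM (log2 -1.03 ± 0.50, adjusted p = 0.107) and was called without untreated mouse 1 (-1.40, adjusted p = 0.0331) but not without mouse 3 (log2 -0.37, adjusted p = 0.641).

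Saa3 at rest was not called with any compound. It was at 2.8, 2.08 and 0.605 CPM with 25HC (log2 -0.91 ± 0.52, adjusted p = 0.202), 2.09, 3.07 and 1.12 with itraconazole (-0.76 ± 0.51, 0.298) and 1.31, 1.37 and 1.85 with OSW-1 (-1.23 ± 0.53, 0.0714). Leaving out untreated mouse 2, the lowest, gave calls with 25HC (-1.35, adjusted p = 0.0468) and OSW-1 (-1.67, adjusted p = 0.0126). Hp and Lcn2 stayed under 1 CPM in every unstimulated wild-type library and were not called with any compound. The Hp libraries with OSW-1, at 0.261, 0.391 and 0.392 CPM, lay above the untreated ones with an adjusted p of 0.374 (log2 1.09 ± 0.91). Saa1 had 0 reads throughout, which gives no fold change at rest. At rest the B cell list, led by Cd79b, summed to 4.32 to 5.51 CPM with 25HC, 4.75 to 5.67 with itraconazole and 4.23 to 4.73 with OSW-1, below the untreated 8.49 to 11.3. The adipocyte list (led by Fabp4) was below its untreated range and the T and NK cell list (led by Klrb1c) above it with each compound, and the part of these markers was not tested.

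The LPS fold change after a compound minus that in untreated cells gives a difference in response. The rise in untreated cells, from which the genes were picked, is the subtracted term, and that choice favours a smaller response after a compound. The differences are therefore a description, given with no p, and nothing is read from their counts. With OSW-1 the edgeR fit called 3 of the 5 genes that can be fitted lower, as it did 28.3% of all tested genes. The log2 differences were -2.75 ± 0.69 for Saa3, -6.50 ± 1.01 for Hp and -1.56 ± 0.62 for Cp, and -0.05 ± 0.40 for Slpi and 0.10 ± 0.50 for Lcn2, which were not called. Without OSW-1 mouse 3 with LPS, Saa3 came to -3.43 and Cp to -2.28, and Cp was not called in 10 of 20 alternatives. The Hp difference rests on few reads at rest, 9 in untreated cells and 21 with OSW-1, over 3 libraries each. The log2 fold change of Slpi with LPS was 7.55 ± 0.34 in OSW-1 cells and 7.60 ± 0.42 in untreated cells.

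With 25HC the log2 difference in response of Slpi was -2.38 ± 0.68, the 1 member of 5 called, beside 6.95% of all tested genes called lower. Its level with LPS was near that of untreated cells, and its level at rest was higher with 25HC. It was not called without untreated unstimulated mouse 1 (-2.04), without 25HC unstimulated mouse 1 (-2.12), in limma-voom or with even counts halved (-2.27). Saa3, Hp, Lcn2 and Cp differed by 0.14 ± 0.67, -1.47 ± 1.28, 0.96 ± 0.56 and 0.57 ± 0.65 with 25HC and none was called. After itraconazole 0 of 5 genes were called in edgeR, 0 had an unadjusted p under 0.05, and DESeq2 and limma-voom also called 0, against 26.3% of all tested genes in either direction. The log2 difference of Hp after itraconazole was -1.81 ± 0.94 and was called without itraconazole mouse 3 with LPS (-2.27).

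Loss of Ch25h left the 6 genes without a called difference in edgeR. With LPS, Ch25h-/- cells had Saa3 at 32572, 38672 and 40870.0 CPM, Saa1 at 8.78, 12.5 and 16.1, Hp at 339, 436 and 451 and Cp at 668, 486 and 539. All of these ranges overlapped those of untreated wild-type cells, with log2 values from -0.53 ± 0.35 (Saa1) to 0.22 ± 0.34 (Cp). Slpi was at 12.3, 15.8 and 16.8 CPM and also overlapped (-0.26 ± 0.24). Lcn2 was at 862, 1215 and 1322 CPM, with mice 2 and 3 above the lowest wild-type library and mouse 1 below it (log2 -0.60 ± 0.23, adjusted p = 0.201). Lcn2 was the 1 member with an unadjusted p under 0.05, and it was called without wild-type mouse 3 (-0.82, adjusted p = 0.0144). DESeq2 and limma-voom called 0 members, and edgeR called 0.228% of all tested genes, a count that went from 30 to 2396 without that library.

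At rest, the genotypes overlapped for each of the 5 members that had reads. edgeR called 0 of these 5 and 0.00759% of all tested genes, 1 gene. Members with an unadjusted p under 0.05 were Saa3, at 1.58, 0.562 and 0.384 CPM (log2 -2.08 ± 0.61, adjusted p = 0.167), and Cp, at 8.68, 3.6 and 4.26 CPM (1.07 ± 0.44, 0.307). DESeq2 called Saa3 (adjusted p = 0.0315), limma-voom called 0 members, and edgeR called Cp without wild-type mouse 3 (1.73, adjusted p = 0.0497), when 361 genes were called in all. Hp at 0.357, 0.297 and 0.154 CPM, Lcn2 at 1.11, 0.826 and 0.307 and Slpi at 0.119, 0.033 and 0.0384 in unstimulated Ch25h-/- cells had log2 values of 0.74 ± 1.05, 0.39 ± 0.45 and -0.50 ± 1.08. The fibroblast markers summed to 5.59 to 12.1 CPM at rest and 13.6 to 25.1 with LPS in Ch25h-/- cells, above the untreated wild-type ranges, and their part was not tested. The LPS response differed by genotype for 0 of 5 members, and for 0% of all tested genes (1476 genes had an unadjusted p under 0.05, 1 member among them). DESeq2 and limma-voom called 0 members, and the count over all genes went from 0 to 716 without wild-type LPS mouse 3.

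Other acute-phase genes were counted from a list drawn up with earlier results known. Of 34 listed, 19 were tested, and in untreated cells 15 were higher and 2 lower with LPS (median log2 4.98, all genes -0.00906), beside 30.8% of all tested genes higher and 30.1% lower. With OSW-1 and LPS, 3 were higher and 10 lower than in untreated cells with LPS (median -2.01, all genes -0.0578), beside 34.3% and 37.1% of all tested genes. Saa2, the neighbour that can share reads with Saa1, fell with OSW-1 (log2 -5.07 ± 0.62, adjusted p = 2.12e-06), 25HC (-1.22 ± 0.45, 0.0394) and itraconazole (-1.14 ± 0.44, 0.0408). The complement component C3 was at 1674 CPM with LPS and 349 with OSW-1 and LPS (log2 -2.26 ± 0.29, adjusted p = 1.55e-07). The interleukin-1 receptor antagonist Il1rn fell as well (-2.01 ± 0.32, 3.36e-06). The LPS co-receptor Cd14 rose, from 908 to 4884 CPM (2.43 ± 0.16, 1.54e-12). With 25HC and LPS 4 of the 19 were higher and 7 lower (median -0.408, all genes -0.00939), beside 20.8% and 21% of all tested genes. With itraconazole 2 were higher and 7 lower (median -0.3, all genes -0.0326), beside 26.5% and 27.9%. Of 7 genes that fall in the liver's acute phase, Trf, which encodes transferrin, was the 1 tested, and it fell with LPS in untreated cells (log2 -1.23 ± 0.19, adjusted p = 5.09e-06) and further with OSW-1 and LPS (-2.70 ± 0.25, 4.73e-10).

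Cytokines, receptors and transcription factors known to drive acute-phase genes were counted in the same way. Of 25 listed, 23 were tested, and with OSW-1 and LPS 11 were higher and 7 lower than with LPS alone (median 0.218, all genes -0.0578), where 34.3% and 37.1% of all tested genes were. Il6, the main inducer in liver, had a mean of 3.9 CPM with LPS and of 2235 with OSW-1 and LPS (log2 9.16 ± 0.55, adjusted p = 2.52e-13). It was also higher with 25HC (185 CPM) and itraconazole (297 CPM), with log2 values of 5.57 ± 0.48 and 6.25 ± 0.49 and adjusted p of 5.52e-09 and 3.98e-10. These 2 values were chosen after they were seen. Il1b rose from 1570.0 to 11269.5 CPM with OSW-1 (log2 2.84 ± 0.33, adjusted p = 3.43e-08). Socs3, a feedback target of STAT3, was not called with OSW-1 (-0.24 ± 0.21, 0.319). With 25HC 14 of the 23 were higher and 2 lower (median 0.752, all genes -0.00939), beside 20.8% and 21% of all tested genes, and with itraconazole 13 were higher and 2 lower (median 0.677, all genes -0.0326), beside 26.5% and 27.9%.

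A further list held receptors and substrates of the member proteins and some genes of related function. Of its 16 tested genes, 3 were higher and 10 lower with OSW-1 and LPS (median -1.9, all genes -0.0578), beside 34.3% and 37.1% of all tested genes. Among those lower were Hmox1, the haem oxygenase, a gene of related function (log2 -3.46 ± 0.32, adjusted p = 7.05e-10), and Grn, whose protein progranulin is protected by Slpi (-2.24 ± 0.09, 6.26e-16). With 25HC 1 was higher and 6 lower, and with itraconazole 2 were higher and 9 lower (medians -0.38 and -0.786), beside 20.8% higher and 21% lower among all tested genes with 25HC and 26.5% and 27.9% with itraconazole. Of 15 other secreted defence genes tested, 12 were lower and 1 higher with OSW-1 and LPS (median -2.47, all genes -0.0578), beside 37.1% and 34.3% of all tested genes. Lysozyme 2 (Lyz2), also 1 of the macrophage markers, fell from 15308 to 1849.8 CPM (-3.05 ± 0.33, 1.14e-08), and Wfdc17, which has the same type of domain as Slpi, fell too (-1.27 ± 0.20, 3.42e-06). The antiprotease Serpinb2 rose, from 2.33 to 371 CPM (7.31 ± 0.52, 4.93e-12). With 25HC 13 of these 15 were lower and 1 higher (median -1.67, all genes -0.00939), beside 21% and 20.8% of all tested genes, and with itraconazole 3 were lower and 1 higher (median -0.803, all genes -0.0326), beside 27.9% and 26.5%.

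Likeness between genes was described by Pearson's r of log2 CPM (prior count 2) over LPS libraries, with no test, since libraries of a group share their treatment. The OSW-1 libraries stand apart, so r among members is given over the 12 other LPS libraries, a choice made after the values were seen. There r was 0.922 for Saa1 and Saa3, 0.943 for Saa3 and Hp, 0.829 for Saa1 and Hp, 0.749 for Saa3 and Cp and 0.644 for Hp and Cp. Slpi had r of -0.717 with Cp but of -0.17 with Saa3, and Lcn2 had 0.583 with Slpi and -0.646 with Cp. Over all 15 LPS libraries, where r mostly sets the OSW-1 libraries against the rest, the genes most like Saa3 were C1rl, March1 and Cfb (r = 0.995, 0.992 and 0.991). Those most like Hp were Sirpb1b, Sirpb1c and Igsf6 (0.986, 0.984 and 0.982), and Sirpb1b was also among the 3 nearest over 12 libraries (0.958), though the Sirpb1 genes are close copies whose reads may be split. Saa1 was nearest to Bst1, Ctsl and March1 (0.984, 0.98 and 0.98), and Cp to Fcrls, Ccl8 and Tango2 (0.982, 0.978 and 0.976). Slpi was nearest to Tbpl1, Arhgap6 and Bud31 (0.982, 0.982 and 0.976), and Lcn2 to Taf1b, Csnk2b and Lims1 (0.962, 0.957 and 0.954).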

How the data were processed

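The starting point was the table of whole-number counts per gene deposited by the authors. The authors' counts came from featureCounts (Subread 1.5.2) after GSNAP alignment to GRCm38/mm10, with FastQC 0.11.9 as quality check, per the submitters' processing notes. Libraries were stranded and polyA-selected, per the labels' protocols, and the strand setting and annotation release are not given in the sources used here. Totals ran from 23656860 to 43922154 counts a library, of which tested genes held at least 99.98%. All counts were even in 20 libraries, and reads behind lower bounds were halved there. Of the others, 9 had 49.66 to 51.38% odd counts and 1 (unstimulated 25HC, mouse 3) had 46.13%.

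Genes passing filterByExpr (minimum count 10) were scaled by TMM and tested with edgeR 4.0.16 (R 4.3.3, quasi-likelihood, 1 fit of all 10 groups, Benjamini-Hochberg over 13173 genes, called at an adjusted p under 0.05). The SE is the size of the log2 fold change over the square root of F. A lower bound sets a group without reads to 3 reads over its libraries. Alternatives used DESeq2 1.42.0 and limma 3.58.1. The procedure was tested on simulated data with genes moved in 1 group. Those data had no shared animals, no libraries of even counts alone and no moved genes among those with the fewest counts. They do not cover these features. The members, gene lists, motifs and tests were chosen with earlier results of these data known. All members are named in every comparison, and of each list genes among the 4 with the highest mean CPM in the libraries compared. Saa2 was added for the reads it can share with Saa1, and Il6 with 25HC and itraconazole after its values were seen. The nearest genes over all 30 libraries, which separate by LPS, are not given.

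The labels name the mouse of each library, so equal numbers within a genotype mean the same animal. Residuals from group means correlated best with a library of the same number in 22 of 24 wild-type and 6 of 6 Ch25h-/- libraries, at low medians (0.0865 and 0.0906). Libraries of 1 animal are treated as independent in the main fit, which has no block. Gene positions and exon lengths come from GENCODE vM21 (GRCm38), in which all 6 identifiers matched. Promoters come from RefSeq (GRCm38.p6), with 5 of 6 members matched. Figures used Python 3.11.15 with pandas 2.3.3 and matplotlib 3.10.9.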

Additional observations from a re-analysis of the deposited data

Results flagged for a closer look

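The LPS response after a compound minus that in untreated wild-type cells, an interaction in the edgeR fit, was called for 4 values. The genes were picked from the untreated response, which is the subtracted term, so the values are a description with no p. With OSW-1 the difference in log2 response was -2.75 ± 0.69 for Saa3, -6.50 ± 1.01 for Hp and -1.56 ± 0.62 for Cp, and the Cp call was lost in 10 of 20 alternatives. With 25HC it was -2.38 ± 0.68 for Slpi, a call lost in 4 of 20 alternatives, limma-voom and the halving of even counts among them. Unstimulated Slpi was at 0.56 ± 0.177 CPM with 25HC against 0.0918 ± 0.0398 in untreated cells (SD, n = 3). Unstimulated Hp had 9 reads in untreated cells and 21 with OSW-1, over 3 libraries each. Groups of 3 are too small for a check of single outlying libraries.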

How the results depend on the processing

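In untreated cells the 6 members stayed called with LPS under each alternative, which says little, since they were picked from that response. They also stayed called with LPS in the other 4 backgrounds, and the 5 called with OSW-1 and LPS stayed so. The exception was LPS after OSW-1 in the fit of the compared groups alone. There Saa1 did not pass the filter on low counts, which left 5 members called of 5 tested. The comparison of OSW-1 with LPS uses the untreated LPS libraries from which the genes were picked. That its calls stayed therefore says little about the falls. In Ch25h-/- cells the response of Saa3 and Lcn2 was known at the choice. Saa1 had 0 reads in every unstimulated group, so its fitted LPS fold change is no measurement. With the replicate block (mouse within genotype), itraconazole at rest called 1 member in place of 2, and the block added Hp for itraconazole with LPS (4 members in place of 3). It changed no other call of a member. Genotype comparisons cannot be blocked this way, since mice are nested in genotype. In limma-voom, 25HC, itraconazole and OSW-1 at rest and the 25HC response difference each called 0 members, in place of 2, 2, 1 and 1. With even counts halved, itraconazole at rest and the 25HC response difference called 0. The compared groups alone called 0 for itraconazole at rest, where Slpi did not pass the filter on low counts and was not tested. DESeq2 called 1 in place of 0 for Ch25h-/- at rest. Leaving out each library in turn gave 1 to 3 members for 25HC at rest, 0 to 2 for itraconazole at rest, 1 to 2 for OSW-1 at rest, 0 to 1 for Ch25h-/- at rest, 0 to 1 for Ch25h-/- with LPS, 0 to 1 for the 25HC response difference and 0 to 1 for the itraconazole response difference. The cause was not tested.

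Of 1350 alternative values for single members, 26 changed sign, all in comparisons where the member was not called. Over all genes, the compared groups alone called 3215 genes for 25HC with LPS (5512 in the fit of all groups), 4571 for itraconazole with LPS (7164), 903 for the 25HC response difference (1620) and 2292 for the itraconazole response difference (3467). Ch25h-/- with LPS (30 genes) called 0 in the compared groups alone, 1 in limma-voom, 58 with even counts halved, 81 with no filter and 230 in DESeq2, and leaving out a library gave 0 to 2396. Ch25h-/- at rest (1 gene) called 0 in the compared groups alone, 2 with no filter, 5 with DESeq2 size factors, 6 with even counts halved, 15 in limma-voom and 129 in DESeq2, and the response difference of Ch25h-/- (0 genes) called 7 in DESeq2. Without untreated unstimulated mouse 3, 25HC at rest fell from 3784 to 2462 genes and itraconazole at rest from 3533 to 2243, and without 25HC unstimulated mouse 2, 25HC at rest called 2359. Leaving out a library gave as few as 889 genes for the 25HC response difference. Library totals alone moved the median of all genes by -0.339 (untreated), -0.268 (Ch25h-/-), -0.318 (25HC), -0.294 (itraconazole) and -0.149 (OSW-1) for LPS, with higher genes then 25.8, 27.8, 26.8, 31.1 and 40.3% of those called, in place of 50.5, 48.9, 47.9, 49.9 and 48.7%. For the OSW-1 response difference they were 59.2% in place of 45.2%, with a median shift of 0.19. Depth limits Saa1, Slpi and Hp at rest, which had 0 to 15 reads a library.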
